A study of Mus musculus with 12 samples.

Results

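The nuclei of growing mouse oocytes were compared with and without MTR4. The comparison uses 6 libraries of nuclear RNA out of the 12 libraries of the series: 3 of nuclei labelled WT and 3 of nuclei labelled Mtr4-null. The other 6 libraries hold the matching cytoplasms. All came from mice at day 14, and each held 10 nuclei or cytoplasms separated by micromanipulation. A nucleus or cytoplasm that is counted or numbered below is such a library. Both genotypes were handled alike, with no treatment. The labels give the mutant genotype only as Mtr4-null, and the sources used here do not give the allele, any Cre driver, the strain or whether animals were pooled. The test took genes that reached 1 FPKM in 3 or more of the 6 nuclei, which left 12117 of 23235 entries. FPKM is a fragment count divided by the length of the transcript and by the size of the library. Differences are between group means of log2(FPKM + 1), so they understate the change of genes of low level, and values after ± are standard errors unless marked as SD.

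MTR4 is an RNA helicase of the nucleus that unwinds RNA and feeds it to the RNA exosome, a complex that degrades or trims RNA from its 3′ end. It works with adaptors such as ZCCHC8 and the poly(A)-binding protein PABPN1, which select promoter-associated, intron-derived and polyadenylated nuclear transcripts, and it takes part in the trimming of ribosomal and small nucleolar RNA. In the growing oocyte the nucleus transcribes the maternal mRNA that is later stored in the cytoplasm.

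The gene for MTR4, named Skiv2l2 in the table, checks the labels. It stood at 6.06, 2.45 and 5.37 FPKM in the WT nuclei against 7.98, 0.182 and 1.12 FPKM in the libraries labelled Mtr4-null nucleus replicates 1, 2 and 3. Replicate 1 lay above every WT nucleus, and replicates 2 and 3 lay below. The log2 difference was -0.93 ± 0.66 (limma, adjusted p = 0.832), -1.76 without replicate 1 (adjusted p = 0.195) and -0.72 without replicate 3 (adjusted p = 0.762). In the cytoplasms, Skiv2l2 measured 21.1, 19.4 and 20.2 FPKM with WT oocytes against 1.04, 0.315 and 0.70 FPKM with Mtr4-null oocytes. Skiv2l2 thus goes against the label of this replicate 1, and all results below are given with it unless stated.

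The library labelled Mtr4-null nucleus replicate 3 stands apart in another way. Its Spearman correlation across genes was 0.87 to 0.94 with the 6 cytoplasms and 0.78 to 0.80 with the WT nuclei, whereas the WT nuclei correlated at 0.74 to 0.77 with the WT cytoplasms. Small RNA genes held 71.9% of its summed FPKM, against 87.5 to 92.4% in the other 5 nuclei. By correlation, replicate 2 of the same label departed from the WT nuclei as well. Replicate 1 was about as close to the WT nuclei as the least alike of these were to each other, but closer to the WT cytoplasms than they were. Replicate 1 correlated at 0.85 with the WT nuclei but at 0.82 to 0.83 with the WT cytoplasms. Replicate 2 reached only 0.69 to 0.73 with the WT nuclei, which correlated at 0.85 to 0.88 with each other. Its correlation was 0.71 to 0.74 with the WT cytoplasms and 0.78 to 0.81 with the Mtr4-null cytoplasms. Relative to the mean of the WT nuclei, the median tested gene differed by -0.02, -0.52 and 0.74 on the log2 scale in the libraries labelled Mtr4-null nucleus replicates 1, 2 and 3. FPKM gives no read numbers, so the depth of these libraries is unknown. The 14 oocyte markers all passed the filter, with a summed level of 3876 to 7631 FPKM in WT against 3535 to 12915 FPKM in the nuclei labelled Mtr4-null. Of the markers of other cell types, 4 of 15 for granulosa cells, 1 of 10 for theca and stroma and 1 of 10 for blood and endothelium passed it. The granulosa markers summed to 16.9 to 23.5 FPKM in WT against 7.57 to 29.6 FPKM in Mtr4-null, and Wt1 was listed at 0 in all 6 nuclei. Those of theca and stroma summed to 3.96 to 37.1 and 1.51 to 4.08 FPKM. Those of blood and endothelium summed to 3.41 to 7.07 and 6.0 to 7.73 FPKM, with Hba-a1, Hba-a2, Hbb-b1, Hbb-b2, Cdh5 and Tyrobp listed at 0.

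In all, 15 genes passed the test (limma, Benjamini-Hochberg adjusted p below 0.05), 0.124% of those tested. Of these, 7 (0.0578%) were higher in nuclei labelled Mtr4-null and 8 (0.066%) were lower. At an unadjusted p below 0.05 there were 987 genes (8.15%). The genes that rose were the small RNA genes Mir5122, Mir1893 and Snord16a, the unnamed gene 1110006O24Rik, and Nme1, Arl8a and Gin1. Those that fell were the small RNA genes Mir680-1, Mir3471-1, Snora43 and Snora62, the imprinted noncoding RNA Ipw, the pseudogene Speer8-ps1, and the genes 1600014K23Rik and Gm15292, which RefSeq lists as synonyms of Fthl17a and Defa40. Leaving out each nucleus labelled Mtr4-null in turn, Mir5122, Mir1893, Mir680-1, Snora43 and Speer8-ps1 passed the test every time, and the other 10 did not. The filter itself bears on these calls: 9 of the 15 reached 1 FPKM in 1 group only, 6 in the nuclei labelled Mtr4-null (Mir5122, Mir1893, 1110006O24Rik, Nme1, Arl8a and Gin1) and 3 in WT (Mir680-1, Snora43 and 1600014K23Rik), so that their groups had to be separate to be tested.

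**Figure D1:**
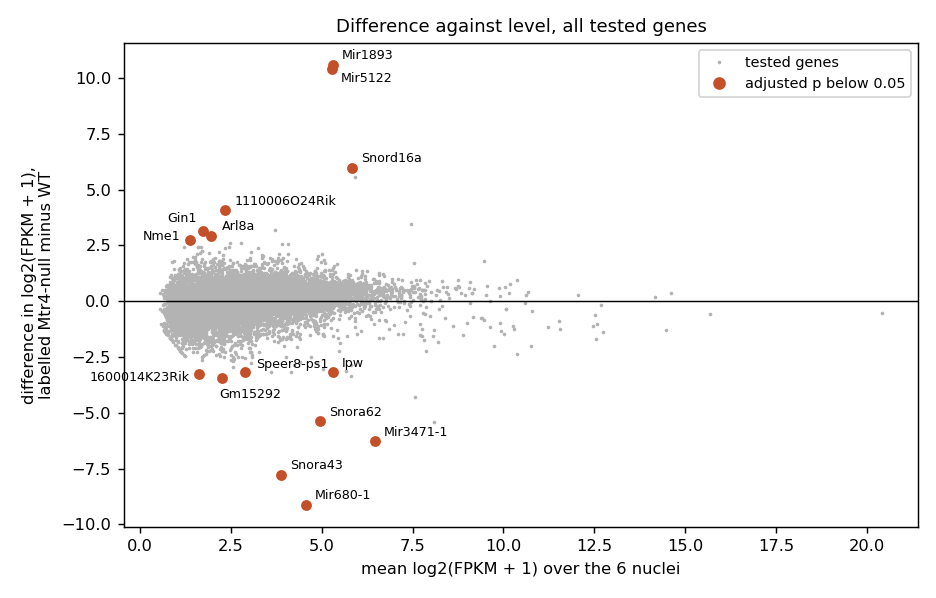
Difference in log2(FPKM + 1) between nuclei labelled Mtr4-null and WT nuclei, against the mean over the 6 nuclei, for the 12117 tested genes (grey) with the 15 that passed the test in orange. The small RNA genes have the largest differences, from -9.12 to 10.59, and the other called genes lie between -3.43 and 4.08.

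The sequences of 3 of the small RNA genes that fell are shown because a reader can then see how short these entries are: their genes measure 109 to 139 bases, less than a single read of 150 bp, and whether a value comes from the mature RNA is unknown. Of the miRNA genes, the mature forms from RefSeq (GRCm38.p6) are printed 5′ to 3′ with the seed, bases 2 to 8, in capitals. Their seeds differ.
mmu-miR-680: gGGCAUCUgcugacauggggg
mmu-miR-3471: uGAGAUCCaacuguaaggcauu
The copy of miR-680 at Mir680-1 lies at chr6:129691541-129691561 (plus strand) and that of miR-3471 at chr4:10845585-10845606 (minus strand), and neither precursor overlapped a gene of GENCODE M21. The same mature miR-680 is encoded at Mir680-2, at chrX:144297790-144297810, so reads from these copies may be split by the counting. The snoRNA Snora43 belongs to the H/ACA class, which guides pseudouridylation, and its GENCODE transcript (GRCm38) is printed with the ACA box in capitals.
Snora43: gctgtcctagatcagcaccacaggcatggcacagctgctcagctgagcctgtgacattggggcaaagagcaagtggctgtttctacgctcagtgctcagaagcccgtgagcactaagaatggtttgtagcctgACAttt
Snora43 lies at chr2:26637847-26637985 (minus strand) and overlapped no other gene of GENCODE M21.

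Snora43 measured 174, 141 and 426 FPKM in WT nuclei and was listed at 0 in all 3 nuclei labelled Mtr4-null and in all 6 cytoplasms (log2 difference -7.78 ± 0.56, adjusted p = 5.52e-11). No fold is given against a group at 0. Snora62, also of the H/ACA class, stood at 161, 97.7 and 507 FPKM in WT against 0, 109 and 0 FPKM in Mtr4-null (adjusted p = 0.0136), so that the groups overlapped, and it lost its call without replicate 3 (adjusted p = 0.387). Snord16a went the other way, from 0, 0 and 373 FPKM to 421, 1438 and 155 FPKM (adjusted p = 0.0323), again with overlap. Its gene overlaps an exon that GENCODE M21 lists for some transcript of Rpl4, but no coding or untranslated region of Rpl4.

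Among the miRNA genes, Mir5122 was at 0.000119, 0.225 and 0 FPKM in WT nuclei against 2042, 1941 and 731 FPKM in nuclei labelled Mtr4-null (log2 difference 10.38 ± 0.54, adjusted p = 4.29e-14). The Mir1893 gene, of 83 bases, overlaps an exon of the coding gene Epc1 on the same strand in GENCODE M21. Epc1 was at 27.8, 17.2 and 25.0 FPKM in WT nuclei against 25.9, 42.7 and 78.2 FPKM in Mtr4-null. Whether fragments of Epc1 were counted for Mir1893 was not tested. Mir1893 itself stood at 0.00370, 0 and 0 FPKM in WT against 901, 5488 and 744 FPKM in Mtr4-null. Mir680-1 showed the reverse pattern, at 785, 191 and 1153 FPKM in WT against a listed 0 in all 3 of the other group (log2 difference -9.12 ± 0.59, adjusted p = 5.5e-12). The groups of Mir680-2, which encodes the same mature RNA, overlapped. Mir3471-1 was at 459, 835 and 1203 FPKM in WT against 0, 0 and 1002 FPKM in Mtr4-null, so the groups overlapped. In the cytoplasms, Mir5122 was at 438, 0.0507 and 88.1 FPKM in WT against 21.3, 0.00123 and 929 FPKM in Mtr4-null. Mir1893 was there at 458, 99.6 and 349 FPKM in WT against 370, 0.00486 and 1095 FPKM in Mtr4-null. Both entries thus varied widely within a group of cytoplasms, down to values near 0.

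The miRNA entries as a whole were sparse. Of 614 in the table, 95 were above 0 in any nuclear library, 71 of these in exactly 1 library and 14 in 3 or more. Where a miRNA gene was above 0, its median level was 237 to 1100 FPKM, depending on the nuclear library, and the smallest level of a snoRNA above 0 was 45.3 to 97.7 FPKM. How many fragments stood behind such a value is unknown. In the fit of 12 libraries with a spread for each compartment, Mir5122, Mir1893 and Mir680-1 did not pass the test, while Snora43, Speer8-ps1 and 1600014K23Rik did.

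**Figure D2:**
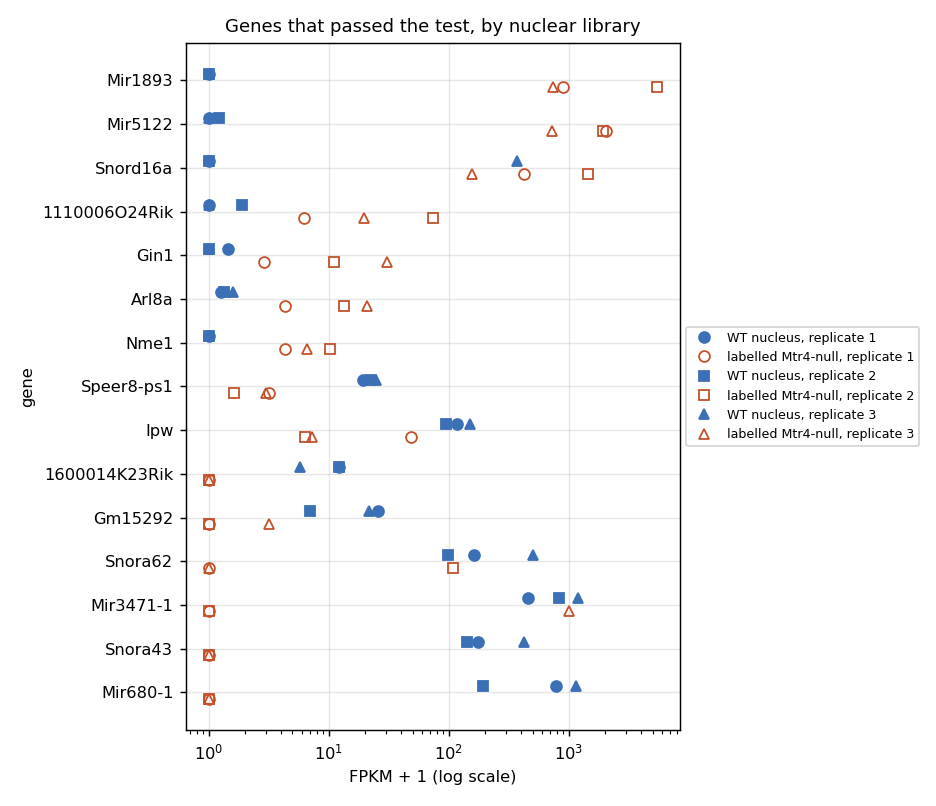
FPKM + 1 on a log scale in each nuclear library for the 15 genes that passed the test, ordered by difference, with WT nuclei filled in blue and nuclei labelled Mtr4-null open in orange. Groups do not overlap for 12 of the genes, and Snord16a, Snora62 and Mir3471-1 are the exceptions.

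Of the called genes other than small RNAs, Speer8-ps1, a pseudogene of the Speer family of spermatogenesis-associated proteins, was at 18.2, 21.6 and 23.9 FPKM in WT nuclei against 2.16, 0.615 and 1.99 FPKM in nuclei labelled Mtr4-null (log2 difference -3.16 ± 0.57, adjusted p = 0.00923). It passed without each of the 3 Mtr4-null libraries. The gene 1600014K23Rik was at 11.2, 11.2 and 4.83 FPKM in WT against a listed 0 in all 3 Mtr4-null nuclei (adjusted p = 0.00641, and 0.0573 without replicate 3). Gm15292 was at 24.8, 6.03 and 20.9 FPKM against 0, 0 and 2.17 FPKM (adjusted p = 0.0136, and 0.0537 without replicate 2). Speer and defensin genes have near-identical copies, between which the authors' counting may have split reads.

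Ipw, a noncoding RNA of the imprinted Prader-Willi region, was at 117, 94.8 and 151 FPKM in WT against 47.7, 5.32 and 6.20 FPKM in Mtr4-null (log2 difference -3.20 ± 0.62, adjusted p = 0.0194). The groups did not overlap, and replicate 1 of the nuclei labelled Mtr4-null lay between replicates 2 and 3 and the WT nuclei. Without replicate 1 the difference was -4.15 (adjusted p = 6.26e-05), and without replicate 3 it did not pass (adjusted p = 0.331).

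Genes with a given name that rose were at or near 0 in WT nuclei. Nme1, a nucleoside diphosphate kinase, was listed at 0 in all 3 WT nuclei, against 3.36, 9.30 and 5.67 FPKM in Mtr4-null (adjusted p = 0.0323). Arl8a, a small GTPase of lysosomes, was at 0.279, 0.339 and 0.586 FPKM against 3.31, 12.4 and 20.001 FPKM (log2 difference 2.93 ± 0.62, adjusted p = 0.0449). Gin1, which encodes a protein related to retrotransposon integrases, was at 0.455, 0 and 0 FPKM against 1.89, 10.1 and 29.5 FPKM (adjusted p = 0.0488). The largest of these rises was that of 1110006O24Rik, from 0, 0.900 and 0 FPKM to 5.27, 73.0 and 18.8 FPKM (log2 difference 4.08 ± 0.69, adjusted p = 0.0049). In each of Arl8a, Gin1 and 1110006O24Rik replicate 1 of the nuclei labelled Mtr4-null was the lowest of its group. Without replicate 2 and without replicate 3, none of these 4 passed.

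Many further genes had groups that did not overlap: 777 higher in nuclei labelled Mtr4-null (6.41%) and 827 lower (6.83%), 13.2% of the tested genes in all. Of the 827, 190 had passed the filter through WT nuclei only, and of the 777, 24 through Mtr4-null nuclei only. The filter fixed the separation of these, and 637 lower and 753 higher genes were left without them, so the lean to the lower side turned. Some with the largest differences follow, none of which passed the test. Dpm3, part of the enzyme that makes dolichol-phosphate mannose for glycosylation, was at 14.6, 0 and 4.39 FPKM in WT against 22.3, 45.1 and 56.6 FPKM in Mtr4-null (adjusted p = 0.0588). Lypd3, for a membrane-anchored surface protein, was at 0.587, 0 and 0.616 FPKM against 2.09, 11.5 and 26.2 FPKM (adjusted p = 0.076). Hp, which encodes haptoglobin, was at 0, 0.445 and 0.769 FPKM against 3.47, 10.4 and 7.05 FPKM, and Foxc1, a forkhead transcription factor, at 0.221, 0.536 and 0.579 FPKM against 1.96, 5.66 and 11.2 FPKM. Lypd3, Hp and Foxc1 passed the filter through Mtr4-null nuclei only.

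On the lower side, Cldn27, of the claudin family of tight junctions, was at 6.47, 7.54 and 6.25 FPKM in WT nuclei against 0.307, 0 and 1.02 FPKM in Mtr4-null (log2 difference -2.48 ± 0.57, adjusted p = 0.076). Dock10, a guanine nucleotide exchange factor of the DOCK family, was at 20.8, 7.58 and 17.1 FPKM against 4.61, 0.477 and 0.489 FPKM. Tas2r108, a bitter taste receptor, was at 85.4, 35.3 and 50.9 FPKM against 25.8, 0.817 and 10.3 FPKM, while its cytoplasmic level was at most 1.57 FPKM in any library. Snrpg, a core protein of spliceosomal snRNPs, was at 46.4, 51.0 and 51.0 FPKM against 7.86, 0 and 37.7 FPKM. The WT values of Snrpg were close together and those of the other group were spread widely.

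Leaving out the library labelled Mtr4-null nucleus replicate 1 gave 181 called genes (1.49%), 63 higher (0.52%) and 118 lower (0.974%), and all 15 genes called with it were among them. The median log2 difference of the 63 was 2.81 and that of the 118 was -2.85. In replicate 1 itself, set against the WT mean, the median of the same genes was 0.34 and -0.64. It lay on the same side of the WT mean as the call in 37 of the 63 and in 93 of the 118. Without replicate 3 the count was 7 (0.0578%), 2 higher (0.0165%) and 5 lower (0.0413%), and without replicate 2 it was also 7, 2 higher and 5 lower. With a spread shared by all 12 libraries, cytoplasms included, 368 (3.04%) were called, 84 (0.693%) higher and 284 (2.34%) lower. Without both replicates 1 and 3, when the single remaining library is assumed to vary like the WT nuclei, 966 genes were called (7.97%), 120 higher (0.99%) and 846 lower (6.98%).

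Some genes for which replicate 1 lay with the WT nuclei, chosen for that after their values were seen, are given as examples and do not stand for all of the 181. Bcat2, a mitochondrial branched-chain aminotransferase, was at 31.1, 29.0 and 30.7 FPKM in WT nuclei against 70.0, 0.762 and 2.59 FPKM in nuclei labelled Mtr4-null. Pxdn, the extracellular matrix enzyme peroxidasin, was at 22.4, 12.2 and 25.5 FPKM against 22.2, 0.880 and 0.0285 FPKM. Capn2, the protease calpain 2, was at 18.4, 14.1 and 15.0 FPKM against 20.4, 0.189 and 0 FPKM. In Pxdn replicate 1 was within the WT range and in Bcat2 and Capn2 above it, and replicates 2 and 3 were below every WT nucleus in all 3 genes.

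Of these, Bcat2 and Pxdn were also low in the Mtr4-null cytoplasms. Bcat2 was at 86.1, 93.2 and 80.0 FPKM in WT against 3.05, 1.80 and 2.98 FPKM in Mtr4-null cytoplasm, and Pxdn at 37.4, 41.8 and 45.1 FPKM against 0.323, 0.153 and 0.356 FPKM. Dclk1, a doublecortin-like kinase, was at 20.3, 11.5 and 16.4 FPKM in WT nuclei against 7.59, 0.0836 and 0.0271 FPKM in nuclei labelled Mtr4-null, and its Mtr4-null cytoplasms held at most 0.0576 FPKM. Sec16b, of endoplasmic reticulum exit sites, was at 15.8, 17.3 and 31.2 FPKM against 14.9, 0.544 and 0.309 FPKM. The kinase gene Stk36 showed the same placement upwards, at 2.41, 3.23 and 4.01 FPKM in WT nuclei against 3.84, 27.7 and 72.5 FPKM in the other group. Whether the label of replicate 1 is right was not tested.

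**Figure D3:**
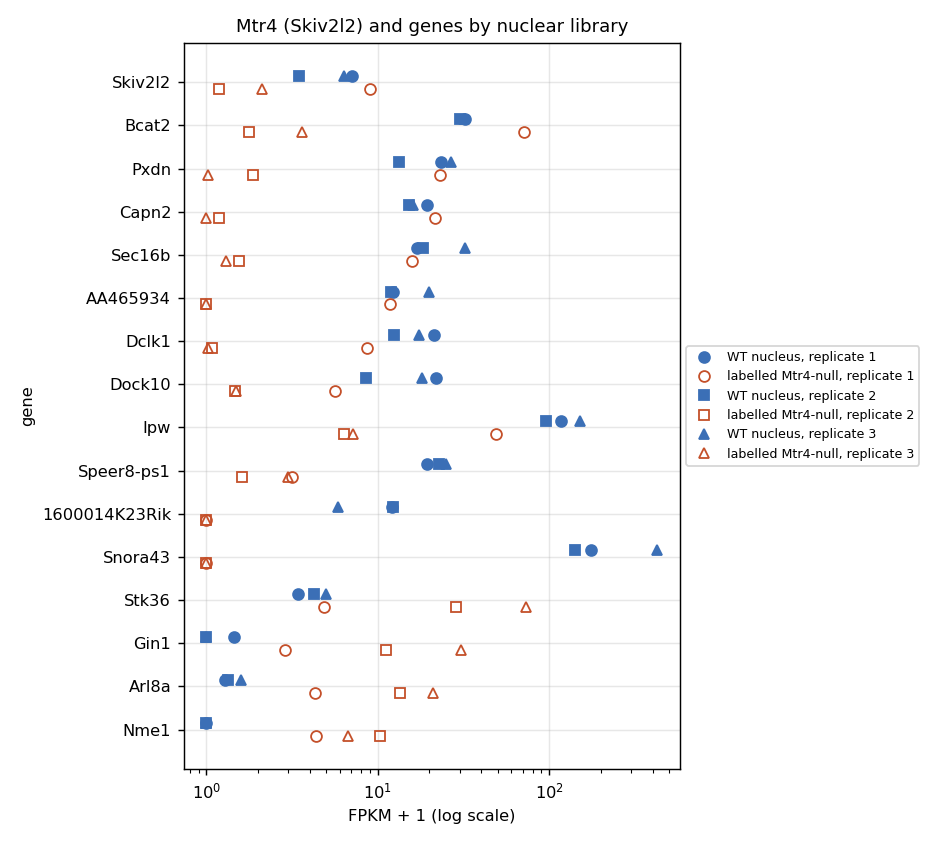
FPKM + 1 on a log scale in each nuclear library for Skiv2l2 and 15 further genes, some chosen after their values were seen. In the upper rows, from Skiv2l2 to AA465934, replicate 1 of the nuclei labelled Mtr4-null (open circle) lies with or beside the WT nuclei, and for Speer8-ps1, 1600014K23Rik and Snora43 it lies with the other 2 of its label.

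Transcripts that the WT cytoplasm hardly held were chosen from the cytoplasms alone. Of the entries, 8001 were under 0.1 FPKM in all 3 WT cytoplasms, and the WT nuclei held 768, 564 and 826 of them at 1 FPKM or more. The nuclei labelled Mtr4-null held 372, 351 and 353. All 3 lay below all WT nuclei, replicates 1 and 3 included, with means of 719 ± 138 and 359 ± 11.6 (SD, n = 3 each; two-sided exact permutation p = 0.1, which is the lowest value possible for groups of 3). Rescaled so that all genes but small RNAs had equal sums, the counts were 708, 670 and 778 against 417, 380 and 272. At 5 FPKM or more they were 145, 74 and 142 against 51, 60 and 61. The summed level of these genes did not fall in every library. It was 91931, 39335 and 102585 FPKM in WT nuclei against 35497, 179746 and 35746 FPKM, so replicate 2 was the highest. Of the summed FPKM outside small RNA genes, they held 1.36, 1.23 and 1.39% against 0.77, 5.59 and 0.65%. The number of all genes at 1 FPKM or more came to 12491, 11473 and 12750 in WT nuclei against 11173, 10325 and 12078 in the others (exact permutation p = 0.2), so those counts overlapped. Fewer nuclei with a transcript and less RNA per nucleus cannot be told apart in such pooled samples. Whether cytoplasmic RNA in the nuclear samples takes part was not tested.

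**Figure D4:**
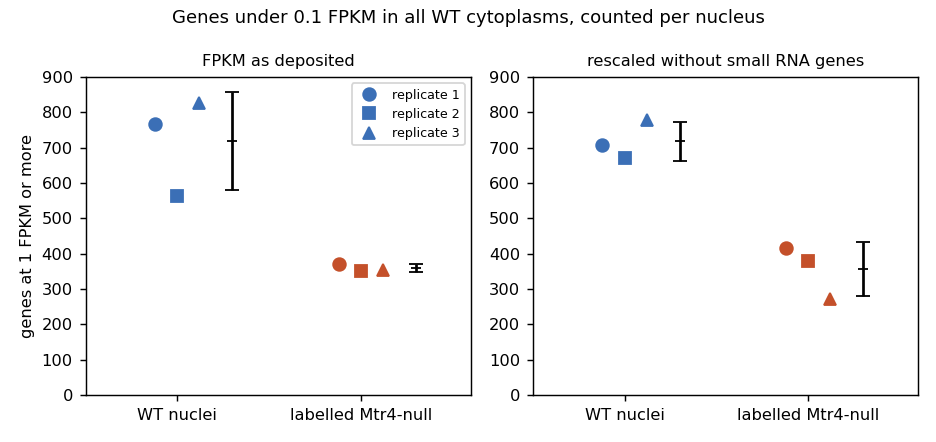
Number of genes at 1 FPKM or more in each nuclear library among the 8001 under 0.1 FPKM in all 3 WT cytoplasms, as deposited (left) and after rescaling without small RNA genes (right). Bars are mean and SD of 3 libraries. WT nuclei sit between 564 and 826, and nuclei labelled Mtr4-null between 351 and 372, as deposited.

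All 3 WT nuclei shared 253 of these genes at 1 FPKM or more, and all 3 Mtr4-null nuclei shared 64, of which 51 were in both sets. In all WT nuclei and in no Mtr4-null nucleus were 77, and none was found the other way round. The 77 were among 431 of these genes that were tested. Over all 12117 tested genes, these 431 included, 190 had the first pattern and 24 the reverse. A lean to WT was thus not confined to these genes, but they held 77 of the 190. Among the 77 were 19 Gm or Rik genes, 5 olfactory or vomeronasal receptor genes, 1 small RNA gene and 52 others. Kncn, the kinocilin gene of hair cell cilia, was at 3.92, 4.08 and 2.94 FPKM in WT against a listed 0 in all 3 Mtr4-null nuclei. Hapln3, a hyaluronan and proteoglycan link protein, was at 2.72, 3.30 and 6.07 FPKM and also listed at 0 in the other group. Among the 51 was Tmem45b, at 27.7, 14.8 and 24.3 FPKM against 13.7, 4.52 and 7.60 FPKM, and Gm12238, at 91.5, 444 and 96.1 FPKM against 325, 247 and 120.0 FPKM. These 4 were chosen after their values were seen.

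Of the receptors of smell and pheromones, which are known from sensory neurons, 104, 70 and 119 of 1444 entries reached 1 FPKM in WT nuclei against 63, 22 and 60 in nuclei labelled Mtr4-null. The counts did not overlap. Of the 60 that could be tested, 7 passed the filter only through WT nuclei. The most abundant was Olfr856-ps1, a pseudogene, at 464, 239 and 398 FPKM against 199, 67.4 and 135 FPKM, followed by Vmn1r58 at 305, 172 and 293 FPKM against 139, 51.2 and 103 FPKM. Neither passed the test (adjusted p = 0.367 and 0.384). Olfr1480, which passed the filter through WT nuclei only, was at 6.18, 2.73 and 2.36 FPKM and listed at 0 in all 3 Mtr4-null nuclei (adjusted p = 0.12).

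Gene lists were compared by their median difference in each library labelled Mtr4-null, taken relative to the median of all tested genes in that library, and by the share of members whose groups do not overlap, beside 6.41% higher and 6.83% lower over all tested genes. Calls without libraries are read beside 0.52% higher and 0.974% lower without replicate 1, and 0.99% and 6.98% without replicates 1 and 3. Of the 72 tested subunits of oxidative phosphorylation, which make up the respiratory chain and ATP synthase, 15 (20.8%, beside 6.41% of all genes) were higher without overlap and 0 were lower. Their relative medians were 0.37, 0.81 and 0.52 in replicates 1, 2 and 3. None passed the test, with all libraries or without replicate 1, and without replicates 1 and 3 there were 6 higher and 4 lower calls. Sdhb, of complex II, was at 11.1, 4.09 and 8.58 FPKM in WT against 15.4, 28.5 and 39.5 FPKM in Mtr4-null (log2 difference 1.69 ± 0.56, adjusted p = 0.323). Atp5j2, of ATP synthase, was at 16.8, 18.6 and 14.5 FPKM against 39.9, 49.6 and 56.2 FPKM. The most abundant was Cox6a1, of cytochrome oxidase, at 50.8, 54.0 and 78.7 FPKM against 94.9, 235 and 143 FPKM.

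The proteasome, which degrades ubiquitylated proteins, had 9 of 43 tested members (20.9%, beside 6.41%) higher without overlap and 0 lower, with relative medians of 0.35, 0.55 and 0.54. Its catalytic subunit gene Psmb5 was at 8.15, 21.3 and 25.0 FPKM in WT against 31.9, 79.0 and 95.1 FPKM in Mtr4-null (adjusted p = 0.247). Of 84 ribosomal protein genes 13 (15.5%, beside 6.41%) were higher without overlap and 0 lower, with relative medians of 0.19, 0.13 and 0.42. Rps14 was at 41.5, 34.9 and 34.6 FPKM against 70.6, 87.5 and 151 FPKM (adjusted p = 0.383). None of the members of either list passed with all 6 libraries. Without replicate 1 the ribosomal list had 1 call, and it was lower: Rps27, at 7.79, 10.9 and 8.56 FPKM in WT and 12.96 FPKM in replicate 1, was at 0.973 and 0.361 FPKM in replicates 2 and 3 (adjusted p = 0.0262). Without replicates 1 and 3, 9 ribosomal genes were called lower and 0 higher, while the relative median stayed at 0.13 in the remaining library.

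Replication-dependent histone genes, whose mRNAs end without a poly(A) tail, had 6 of 36 (16.7%, beside 6.41%) higher without overlap and 1 (2.78%, beside 6.83%) lower, with relative medians of 0.28, 1.14 and 1.18. The linker histone gene Hist1h1a was at 91.6, 118 and 101 FPKM in WT against 138, 689 and 408 FPKM in Mtr4-null, and Hist1h1c at 5.54, 1.87 and 5.82 FPKM against 6.94, 27.4 and 17.4 FPKM. The testis linker histone gene Hist1h1t was the exception, at 9.45, 3.58 and 3.72 FPKM against 0, 1.59 and 0.516 FPKM. None passed the test with all libraries, 3 higher and 1 lower did without replicate 1, and near-identical histone copies make single values uncertain.

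These lists overlap with what the cytoplasm holds. Among the 500 most abundant genes of the WT cytoplasms, 489 were tested, and 64 (13.1%, beside 6.41%) were higher and 1 (0.204%, beside 6.83%) lower in nuclei labelled Mtr4-null without overlap, with relative medians of 0.34, 0.15 and 0.46. Of the summed FPKM outside small RNA genes, this list held 31.8, 29.4 and 34.7% in WT nuclei against 39.2, 29.0 and 36.7% in replicates 1, 2 and 3. Whether cytoplasmic RNA in the nuclear samples takes part in the differences of the mitochondrial, proteasome and ribosomal genes was not tested. The same holds for the lists below that were lower.

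Of 14 tested imprinted transcripts, a list of coding and noncoding genes, 6 (42.9%, beside 6.83% of all genes) were lower without overlap and 0 higher, and Ipw alone passed the test. Of the 6, Peg13 passed the filter through WT nuclei only, which fixed its separation. The list had relative medians of -0.77, -0.68 and -1.44. Not every member was lower. Gnas, among the most abundant of the list, was at 45.8, 33.3 and 60.0 FPKM in WT against 49.5, 108 and 174 FPKM in Mtr4-null, with overlap (log2 difference 1.10 ± 0.55, adjusted p = 0.628). Kcnq1ot1, which silences a domain of imprinted genes in cis, was at 43.5, 22.7 and 38.8 FPKM in WT against 18.8, 6.35 and 12.98 FPKM in Mtr4-null (log2 difference -1.46 ± 0.55, adjusted p = 0.387). Airn, the antisense RNA of Igf2r, was at 38.5, 18.9 and 22.8 FPKM against 14.6, 3.48 and 4.70 FPKM (adjusted p = 0.273, and 0.0488 without replicate 1). Peg13 was at 2.40, 1.57 and 2.52 FPKM against 0.329, 0 and 0 FPKM. Peg3as, transcribed opposite the imprinted Peg3, was at 66.4, 36.1 and 95.6 FPKM against 25.5, 1.71 and 18.0 FPKM, although the use of strand in the counting is unknown. Other noncoding classes did not share a direction across the libraries: the relative medians were -0.35, 1.31 and -1.98 for structured noncoding RNAs, 0.07, 0.43 and -3.38 for snoRNA and scaRNA genes, and -3.01, 0.68 and -1.03 for miRNA genes. Of 8 other nuclear long noncoding RNAs, 0 had separate groups.

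Host genes of snoRNAs, whose spliced RNAs are short-lived and whose introns yield snoRNAs, had 3 of 16 (18.8%, beside 6.83%) lower without overlap and 0 higher. Their relative medians were -0.99, -0.22 and -1.36, so that the difference was smallest in replicate 2, the library left when replicates 1 and 3 are taken out. Taf1d was at 43.5, 26.7 and 39.1 FPKM in WT against 15.9, 7.17 and 11.2 FPKM in Mtr4-null (log2 difference -1.62 ± 0.53, adjusted p = 0.321), and Snhg1 at 43.0, 24.3 and 38.7 FPKM against 21.9, 10.4 and 18.1 FPKM. The third was Gas5, at 4.80, 3.89 and 4.11 FPKM against 1.48, 2.16 and 2.099 FPKM. Of 6 tested Speer genes, 3 were lower without overlap, beside 6.83% of all genes, with relative medians of -1.17, -1.58 and -2.17. Besides Speer8-ps1 these were Speer4a, at 25.4, 8.60 and 28.4 FPKM against 5.72, 0.868 and 2.81 FPKM, and Speer7-ps1, at 17.6, 9.82 and 29.0 FPKM against 2.82, 1.92 and 3.74 FPKM.

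Malat1, an abundant long RNA of nuclear speckles, was at 487, 262 and 596 FPKM in WT against 278, 119 and 154 FPKM in Mtr4-null (log2 difference -1.29 ± 0.56, adjusted p = 0.515), and its groups overlapped. Neat1 and Xist were under 1 FPKM in all 6 nuclei and were not tested. Of 9 tested interferon-stimulated genes 3 (33.3%, beside 6.83%) were lower without overlap, among them Mx1, an antiviral GTPase, at 9.26, 5.89 and 9.05 FPKM against 2.68, 1.36 and 0.660 FPKM, and Eif2ak2, the kinase that senses double-stranded RNA, at 15.1, 7.51 and 11.4 FPKM against 6.13, 0.684 and 4.30 FPKM. Neither passed the test (adjusted p = 0.272 and 0.409). Bst2, the tetherin gene, had a higher mean in Mtr4-null, at 11.2, 12.6 and 3.12 FPKM against 14.1, 15.05 and 11.4 FPKM (log2 difference 0.71, adjusted p = 0.877).

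Of 1360 tested Gm and Rik genes, predicted genes or cDNA clones without a given name, 59 (4.34%) were higher and 171 (12.6%) lower without overlap. Of these, 41 had passed the filter through WT nuclei only and 4 through Mtr4-null nuclei only, so the filter fixed their side. Zfp zinc finger genes showed no such lean, with 14 of 255 (5.49%) higher and 16 (6.27%) lower, close to the background of 6.41% and 6.83%. Zfp488 and Zfp277 were the most abundant of the zinc finger genes with separate groups, at 535, 268 and 485 FPKM against 223, 48.9 and 168 FPKM, and 569, 312 and 564 FPKM against 252, 71.2 and 209 FPKM. Neither passed the test.

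**Figure D5:**
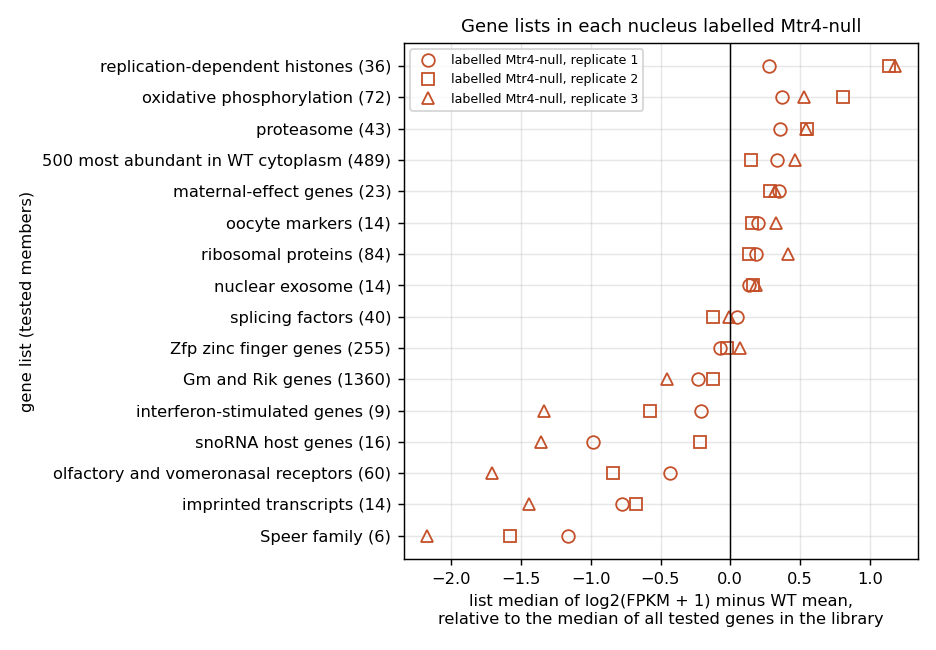
Median difference from the WT mean, relative to that of all tested genes in the library, for 16 gene lists in each nucleus labelled Mtr4-null, with the number of tested members in brackets. Histone, respiratory chain and proteasome genes lie above 0 and Speer, imprinted, receptor and snoRNA host genes below 0 in all 3 libraries. The abundant cytoplasmic, maternal-effect, oocyte marker, ribosomal and exosome lists also lie above 0 in all 3. Gm or Rik and interferon-stimulated genes also lie below 0 in all 3.

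Of 14 exosome subunits and cofactors, 1 (7.14%, beside 6.41% of all genes) was higher without overlap and 0 lower, close to the background. It was Exosc6, a subunit of the exosome ring, at 1.65, 5.56 and 7.60 FPKM in WT against 15.7, 46.5 and 9.17 FPKM in Mtr4-null (adjusted p = 0.309). Of 17 adaptors and related factors, 2 (11.8%, beside 6.41%) were higher without overlap and 0 lower. Pabpn1 was at 21.04, 12.5 and 15.5 FPKM against 23.4, 28.4 and 42.0 FPKM, and Zcchc8 at 23.1, 23.9 and 25.4 FPKM against 27.3, 30.0 and 46.9 FPKM. No member of either list passed the test. Neither these values nor the p-values show that the levels were equal.

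Of 14 oocyte markers 1 (7.14%, beside 6.41%) was higher without overlap and 0 lower. It was Ooep, of the subcortical maternal complex, at 178, 145 and 223 FPKM against 234, 247 and 640.4 FPKM (adjusted p = 0.767). For Gdf9, Bmp15, Zp3 and Nobox the groups overlapped, and their direction turned when libraries were left out. Gdf9, a growth factor secreted by the oocyte, was at 922, 737 and 912 FPKM in WT against 1289, 728 and 2504 FPKM in Mtr4-null. Bmp15, its partner, was at 465, 239 and 364 FPKM against 391, 104 and 633 FPKM. The egg coat gene Zp3 was at 1485, 900.2 and 2229 FPKM against 1672, 1013 and 3019 FPKM, and Nobox, a transcription factor of oocyte growth, at 47.0, 44.2 and 61.8 FPKM against 73.0, 41.4 and 113 FPKM. Replicate 3 was the highest of its group in all 4. Of 23 maternal-effect genes, needed in the egg for early cleavage, 4 (17.4%, beside 6.41%), Ooep among them, were higher without overlap and 0 lower. The most abundant of these, Zbed3, was at 957, 913 and 1021 FPKM in WT against 1536, 1624 and 2511 FPKM in Mtr4-null (adjusted p = 0.799).

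The genotype difference in the nucleus was tested against that in the cytoplasm in the 12 libraries, with weights that let the compartments have unequal spread. It differed for 15 genes (0.124%), with 1 (0.00825%) more positive and 14 (0.116%) more negative in the nucleus. Without replicate 1 the test called 11 genes, and 4 of the 15 were among them: Snora43, Speer8-ps1, 1700020G17Rik and Pnpla3. The other 11 had adjusted p of 0.0535 to 0.126. Without replicate 2, 5 of the 15 were kept, and without replicate 3, 12. Of the 15, 10 had passed the filter through WT nuclei only, where they are high, so their direction in the nucleus was fixed by the filter. Snora43, Speer8-ps1 and 1600014K23Rik were among the 14. For Kncn, Ltb4r2, Hgfac, Igsf9, Kbtbd5, Olfr1480, 1700020G17Rik and 2310043L19Rik, the WT nuclei held 2.05 to 8.55 FPKM and every other library at most 0.297 FPKM, and these 8 are among the 10.

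The other calls came from the cytoplasm. E030030I06Rik was at 33.4, 19.3 and 27.1 FPKM in WT nuclei against 13.6, 7.78 and 32.2 FPKM in nuclei labelled Mtr4-null, where the groups overlapped, whereas it went from 1.55, 0.696 and 1.76 FPKM in WT cytoplasm to 24.2, 33.9 and 25.4 FPKM in Mtr4-null cytoplasm. Likewise 4930470H14Rik stood at 1149, 674 and 1122 FPKM against 604, 350.1 and 687 FPKM in nuclei, and at 7.17, 2.84 and 2.83 FPKM against 82.1, 66.1 and 97.6 FPKM in cytoplasms. For Pnpla3, a lipase-like protein of lipid droplets, the nuclei held 30.1, 16.8 and 27.2 FPKM against 23.3, 5.33 and 6.12 FPKM, and the cytoplasms 101, 106 and 102 FPKM against 1.22, 1.67 and 1.73 FPKM.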

How the data were processed

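Libraries were total RNA depleted of ribosomal RNA, read as pairs of 150 bp, per the labels' protocols. The authors deposited FPKM values; TopHat2 2.1.1, Cufflinks 2.2.1 and build mm9 are named, per the submitters' processing notes. What each tool did, which annotation served and whether strand was used is not given in the sources read. Columns were matched to samples by title. No label ties libraries to separate mice. The p-values thus reflect only how much these libraries vary, possibly for technical reasons. The design text speaks of duplicates, but 3 libraries per group are labelled.

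From the FPKM, log2(FPKM + 1) was fitted with limma 3.58.1 in R 4.3.3 (2 groups, moderated variance with a trend, two-sided, Benjamini-Hochberg over 12117 genes), and the interaction over 12 libraries. Only the 6 nuclei entered the nuclear fit. The fit was tested on simulated data. Alternatives were the pseudocount, the filter, scalings, weights, a replicate block and left-out libraries.

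Genes were named by rule: the 12 largest rises and falls with given names among genes with groups that do not overlap and a mean of 5 FPKM or more in the higher group, 4 each of Gm or Rik and of small RNA genes, all called genes, and up to 4 separate and 2 abundant members of a list, from which the text takes a part. Genes of the interaction, Bst2, Rps27, Mir680-2, Epc1 and those said to be so were chosen after their values were seen. The comparison and lists were chosen with earlier results of these data known. Sequences are from GRCm38 tables, whose build differs from that of the files. Some items are not reported here.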

Additional observations from a re-analysis of the deposited data

Results flagged for a closer look

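In 15 genes the genotype difference in the nucleus differed from that in the cytoplasm by the interaction test (limma with weights per compartment, adjusted p below 0.05). All values are differences in log2(FPKM + 1), nucleus minus cytoplasm. The difference was -7.78 for Snora43, -3.45 for 1600014K23Rik, -3.12 for Speer8-ps1, -2.45 for 1700020G17Rik, -2.23 for Hgfac, -2.22 for 2310043L19Rik, -2.18 for Kncn, -2.13 for Olfr1480, -2.105 for Kbtbd5, -2.08 for Ltb4r2 and -1.99 for Igsf9. In these 11 genes but Speer8-ps1, whose Mtr4-null nuclei held 2.16, 0.615 and 1.99 FPKM, the filter was passed through WT nuclei only, so the direction in the nucleus was fixed by it and the values are no folds. It was -4.91 for 4930470H14Rik, -4.38 for E030030I06Rik and -2.51 for 4930405P13Rik, which were higher in Mtr4-null than in WT cytoplasm. It was 4.09 for Pnpla3, which was lower in Mtr4-null cytoplasm. Snora43 had the smallest adjusted p, 2.25e-06. Without Mtr4-null nucleus replicate 1, whose Skiv2l2 level goes against its label, Snora43, Speer8-ps1, 1700020G17Rik and Pnpla3 were kept, and the other 11 had adjusted p of 0.0535 to 0.126. The 3 libraries of a group are too few for a check of single outlying samples.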

How the results depend on the processing

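With all 15 calls as the base (7 higher, 8 lower), a pseudocount of 0.1 gave 4 calls (2 higher, 2 lower), as did no filter. Median-of-ratios scaling, quantile normalization and rescaling without small RNA genes each gave 5 (2 higher, 3 lower), the 5 being Mir5122, Mir1893, Mir680-1, Snora43 and Speer8-ps1. A spread shared by all 12 libraries gave 368 (84 higher, 284 lower). With weights per compartment 0 genes were called higher, against 11 lower, where 876 genes had an unadjusted p below 0.05 in either direction, and with a weight per library 3 were higher and 8 lower. Leaving out each library in turn gave 7 to 181 calls, with 2 to 63 higher and 5 to 118 lower, and without both Mtr4-null nuclei 1 and 3 there were 966 (120 higher, 846 lower). Without replicate 1 all 15 stayed called. The counts without WT nuclei 1, 2 and 3 were 27, 21 and 27. The labels do not say that replicate numbers pair the samples. Same-numbered deviations correlated at 0.11, 0.06 and -0.02, and other pairs at -0.12 to 0.05. Samples of replicates 1 and 2 correlated best with each other by number, and those of replicate 3 did not. Values this small, from 3 libraries per group, cannot decide whether the samples were paired. With the replicate number as a block 123 genes were called (36 higher, 87 lower). The interaction gave 27 calls with 1 shared spread and 7 to 33 with an Mtr4-null nucleus left out (33 without replicate 3).

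The count of genes silent in WT cytoplasm was lower by 361 per nuclear library, and by 307 to 438 with a library left out, of which the lowest was without WT nucleus replicate 3 and the highest without WT nucleus replicate 2. Of 2078 values of single genes under these alternatives, 1761 kept direction and side of the threshold, 97 lost a call and 208 gained one. The direction turned in 12, all of genes that passed no test in the nuclei. Gdf9 was at -0.23, Zp3 at -0.51, Nobox at -0.28 and 4930405P13Rik at 0.46 without Mtr4-null nuclei 1 and 3. Bmp15 was at 0.025 after quantile normalization. With each library left out in turn, the log2 difference ran from -0.15 (without Mtr4-null nucleus replicate 3) to 0.64 (without replicate 2) for Zp3, and from -0.77 (without replicate 3) to 0.53 (without replicate 2) for Bmp15. It ran from -0.24 (without Mtr4-null nucleus replicate 2) to 0.17 (without replicate 1) for 4930405P13Rik. Where no construction of an alternative accounts for a change, the cause was not tested. FPKM gives no read numbers, so what depth limits cannot be stated.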
